A study of Mus musculus with 18 samples.

Results

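Right-side melanomas that had received pMC, cells derived from induced pluripotent stem cells that carry no IFN-alpha mark in their name, were compared with right-side melanomas that had received no cells. The comparison used the 3 right pMC libraries and the 3 right control libraries, 6 of the 18 libraries of the series, chosen by their titles. It asks what the injected cells do without interferon alpha. All 14849 genes with enough counts were tested.

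All groups shared the same host and tumour. MO4 cells, which are B16F10 melanoma cells that express ovalbumin, formed subcutaneous tumours on both hindlimbs of C57BL/6 mice after 100000 cells per side on day 0. The pMC group had pMC (1000000 cells, per the labels) placed around the right tumour on days 5, 6 and 7. The control group had none, and its labels name no mock injection, so the cells and the injection itself cannot be told apart. Tumour RNA was taken on day 11 in both groups. The left tumours of the same 2 groups, distant from the injection, and the right tumours given IFN-alpha-pMC, which are iPSC-pMC whose name carries IFN-alpha, are set beside the comparison where they show where it differs. The age and sex of the mice, the number of cell clones behind the pMC, and whether libraries of a group came from separate animals are not given in the labels, and p-values here rest on the spread among these libraries.

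B16-type melanomas are pigmented tumours with few resident lymphocytes. Their stroma holds blood vessels, fibroblasts and macrophages, and type I interferon acts on nearly all of these cells through one receptor to raise a common set of antiviral and antigen presentation genes. Cells placed beside a tumour could add their own RNA to the sample, draw in immune cells or alter the vessels, and each of these would appear in bulk RNA as a group of marker genes moving together. In bulk tumour RNA, fewer cells of a type and less RNA per cell cannot be told apart.

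No gene passed the test between pMC and control tumours. Of the 14849 genes, 0 were higher and 0 lower (percent called 0 in either direction) by edgeR's quasi-likelihood test with Benjamini-Hochberg adjustment, where the smallest adjusted p was 0.945. The limma-voom test also called 0, and DESeq2 called 0 higher and 2 lower. At an unadjusted p under 0.05, edgeR listed 187 genes higher (1.26%) and 172 lower (1.16%), 359 in all (2.42%), and limma-voom listed 382. The 3 pMC libraries were all above the 3 control libraries for 250 genes (1.68%) and all below for 243 genes (1.64%). By comparison, IFN-alpha-pMC right tumours against pMC right tumours gave 1318 genes higher (8.88%) and 179 lower (1.21%) at an adjusted p under 0.05 in the same model, and that contrast uses no control library. IFN-alpha-pMC right tumours against control right tumours gave 1303 higher (8.78%) and 298 lower (2.01%).

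The intervals show how large a change could have been missed, given a spread shared by all 6 groups. They may be too narrow for this comparison. The median SD of log2 CPM was 0.432 in right controls, against 0.197 in right pMC tumours. In a fit of the 2 groups alone, 111 genes (0.791%) had an unadjusted p under 0.05 in edgeR's quasi-likelihood test, against 359 in the shared model. The median log2 fold change, pMC minus control, was -0.03 over all genes, 45.2% of genes were above 0, and the 10th and 90th percentiles were -0.33 and 0.36. The median half-width of the 95% interval was 0.52 on the log2 scale, or 1.44-fold. For 10623 genes (71.5%) the whole interval lay within 2-fold either way. A rise of 2-fold or more was outside the interval for 12204 genes (82.2%), and a fall of that size for 12641 genes (85.1%).

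The spread came mostly from the control side. Library totals of the 6 right libraries were 17.51 to 21.2 in units of 1000000 counts, and 17866 to 18652 gene IDs had counts. Spearman correlations of log2 CPM (counts scaled to a library size of 1000000) were 0.986 to 0.992 among the pMC libraries, 0.936 to 0.981 among the control libraries and 0.962 to 0.986 between the groups. The median SD of log2 CPM over 3 libraries was 0.197 in pMC right tumours and 0.432 in control right tumours, and it was larger in the controls for 78.3% of genes. On the left side it was 0.14 in pMC tumours and 0.135 in control tumours. Control 3 was the control farthest from its group mean for 63.2% of genes. Across genes, centred log2 CPM had Spearman correlations with transcript length of 0.04, -0.05 and -0.13 in pMC 1, 2 and 3, against 0.33, 0.54 and -0.49 in control 1, 2 and 3. The controls therefore lay on both sides of the pMC libraries in this measure, but the group difference was not free of it. Across genes, the log2 fold change had a Spearman correlation with transcript length of -0.3 with all libraries. Without control 3 the correlation was -0.47. With all libraries and transcript length and GC content modelled, it was -0.03. A score of skeletal muscle genes was -0.5, 0.02 and -0.44 in pMC 1, 2 and 3, against 0.96, -0.9 and -0.38 in control 1, 2 and 3. The part of transcript length and of muscle RNA in single results was not tested beyond the values given beside them.

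**Figure D1:**
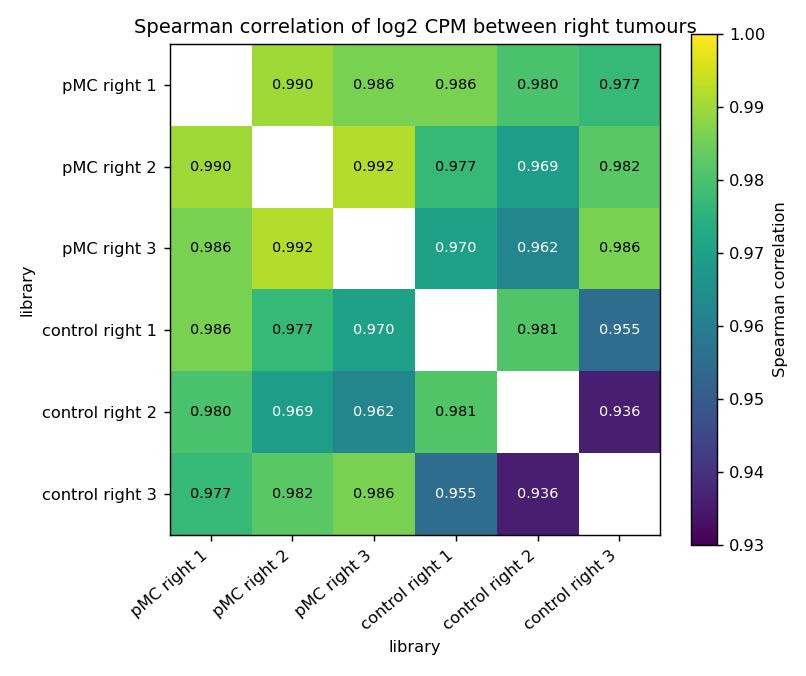
Spearman correlation of log2 CPM over tested genes for each pair of the 6 right libraries (rows and columns: pMC right 1 to 3, then control right 1 to 3; colour and number: correlation). The pMC pairs reach 0.986 to 0.992, while pairs with control right 3 include the lowest value, 0.936.

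Leaving out control 3 moved the count of low p-values more than leaving out any other of the 6 libraries. Without it, 3527 genes (23.3%) had an unadjusted p under 0.05 in edgeR's quasi-likelihood test, and 1 gene was called. That gene was Gm15920, a predicted gene, whose log2 fold change without control 3 was 1.76 ± 0.25 with an edgeR adjusted p of 0.0434. It is outside the naming rule and was picked after its values were seen. It had 1960, 2056 and 1959 counts in pMC 1, 2 and 3, against 678, 701 and 2658 in control 1, 2 and 3. Control 3 was above all pMC libraries and the other controls far below them. With all libraries its log2 fold change was 0.46 with an edgeR adjusted p of 0.945. When transcript length and GC content were also modelled without control 3, the counts were 0 called and 2616 unadjusted (17.3%). Leaving out control 1 or control 2 gave 237 and 578 unadjusted genes, and leaving out pMC 1, 2 or 3 gave 622, 216 and 325, with 0 called in each.

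**Figure D2:**
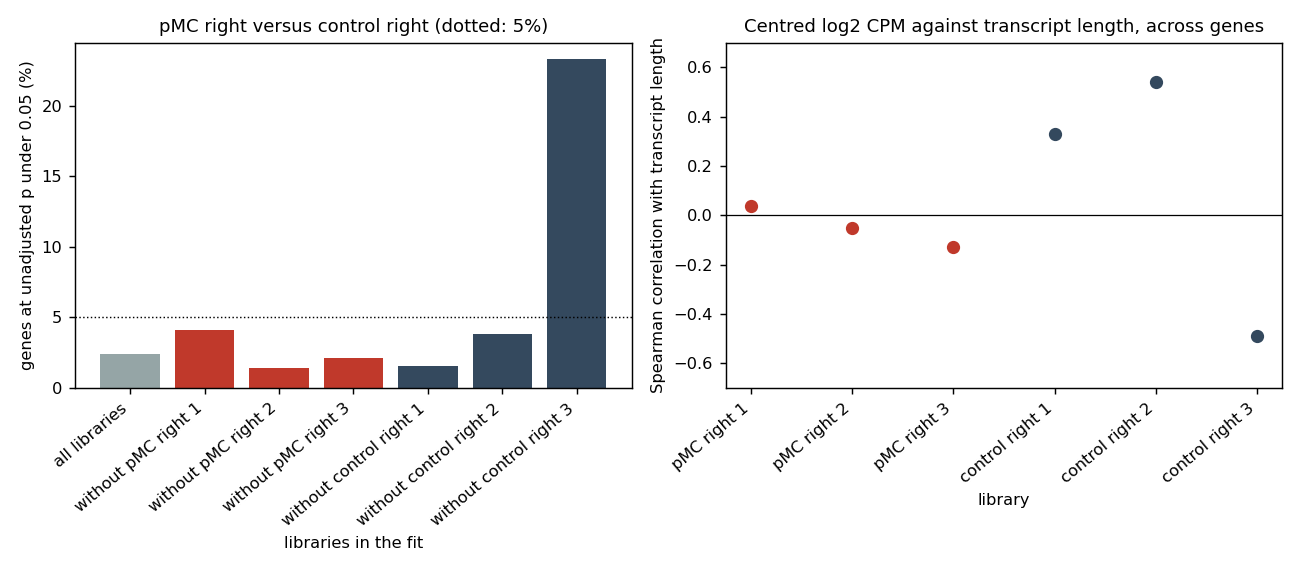
Left, percent of tested genes at an unadjusted p under 0.05 (edgeR, pMC right versus control right) with all libraries and with each library left out; the bar without control right 3 stands at 23.3%, against 2.42% with all. Right, Spearman correlation across genes between centred log2 CPM and transcript length in each library, where controls run from -0.49 to 0.54 and pMC libraries from -0.13 to 0.04.

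In each direction, the 6 genes with the smallest unadjusted p among those with groups apart and a mean of at least 1 CPM in the higher group are given as values, since none passed the adjusted test. Mitf, the master transcription factor of melanocytes, had 1761.5, 2133.2 and 1995.6 CPM in pMC 1, 2 and 3, against 1067.8, 1157.4 and 1658.5 CPM in control 1, 2 and 3. All pMC libraries were above all controls, with control 3 the nearest. Its log2 fold change was 0.60 ± 0.18 (95% interval 0.23 to 0.97; edgeR adjusted p = 0.945). In the left tumours Mitf was at 1736.3, 1441.9 and 1784.0 CPM with pMC, against 1319.9, 1367.1 and 1515.3 CPM in controls, and the difference between the sides was 0.36 on the log2 scale (edgeR adjusted p = 1). On the left the groups overlapped.

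Pdk1 encodes a kinase that shuts pyruvate out of mitochondrial oxidation and is a textbook target of hypoxia-inducible factor. It had 103.7, 99.3 and 76.6 CPM in pMC 1, 2 and 3, against 47, 61 and 73.7 CPM in control 1, 2 and 3, a log2 fold change of 0.62 ± 0.19. The groups were separate by a small margin at pMC 3 and control 3. Klf15, a Krüppel-like factor induced by glucocorticoids, had 27.1, 44.4 and 30.5 CPM in pMC 1, 2 and 3, against 19.6, 21.1 and 19.3 CPM in control 1, 2 and 3 (0.77 ± 0.23). On the left Klf15 had 25.9, 51.6 and 38.3 CPM with pMC, against 20.4, 18.3 and 20.4 CPM in controls. Both sides had pMC above control in every library for this gene. Over all genes, the groups were apart on the higher side for 1.68% on the right and 9.7% on the left. Whether right and left libraries came from the same mice is not given in the labels.

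Eva1c, which encodes a membrane protein, had 11.7, 13 and 12.1 CPM in pMC 1, 2 and 3, against 6.22, 6.72 and 7.82 CPM in control 1, 2 and 3. The log2 fold change was 0.83 ± 0.19, and the left tumours gave the same estimate, 0.83 ± 0.19. The control libraries were all well below the pMC libraries. Pik3r6, a regulatory subunit of phosphoinositide 3-kinase gamma found in leukocytes, was low throughout, at 0.996, 1.06 and 1.02 CPM in pMC 1, 2 and 3, against 0.549, 0.48 and 0.438 CPM in control 1, 2 and 3 (1.05 ± 0.29). Dennd2c, a Rab exchange factor, had 7.19, 8.44 and 7.39 CPM in pMC 1, 2 and 3, against 4.89, 4.75 and 5.38 CPM in control 1, 2 and 3 (0.62 ± 0.17). Neither gene overlapped between the groups.

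On the lower side, Aplnr, the apelin receptor of sprouting endothelium, had 5.59, 5.23 and 5.67 CPM in pMC 1, 2 and 3, against 21.2, 7.46 and 9.57 CPM in control 1, 2 and 3. The pMC libraries were nearly equal and the control libraries spread widely, with control 1 the highest. The log2 fold change was -1.21 ± 0.31 (95% interval -1.87 to -0.56; edgeR adjusted p = 0.945). On the left Aplnr had 7.52, 6.53 and 7.67 CPM with pMC, against 12.8, 10.7 and 10.6 CPM in controls (-0.65 ± 0.31), so the groups were apart on both sides. Over all genes, the groups were apart on the lower side for 1.64% on the right and 5.08% on the left. In IFN-alpha-pMC right tumours Aplnr had 4.05, 5.03 and 7.31 CPM.

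Heyl, a Notch target of vessel walls, had 1.55, 1.15 and 1.28 CPM in pMC 1, 2 and 3, against 5.12, 1.7 and 2.5 CPM in control 1, 2 and 3 (-1.23 ± 0.40). Cnksr1, a scaffold of Ras signalling, had 1.71, 1.54 and 1.55 CPM in pMC 1, 2 and 3, against 6.08, 2.79 and 2.25 CPM in control 1, 2 and 3 (-1.22 ± 0.39). Control 1 was the highest library for both. Cpxm1, a secreted carboxypeptidase-like protein, had 0.387, 0.0959 and 0.482 CPM in pMC 1, 2 and 3, against 1.92, 0.567 and 1.81 CPM in control 1, 2 and 3 (-2.14 ± 0.66). Ebf3 (-1.07 ± 0.35), an early B cell factor family member, and Sv2b (-1.11 ± 0.38), a synaptic vesicle protein, were under 2 CPM in all 6 libraries. Against pMC tumours, IFN-alpha-pMC right tumours were higher for Cpxm1 (log2 fold change 2.72, edgeR adjusted p = 0.0109) and for Cnksr1 (1.72, edgeR adjusted p = 0.0075). Both genes were named for low pMC values, which that contrast uses again. Against control right tumours neither passed, at 0.58 for Cpxm1 (edgeR adjusted p = 0.603) and 0.51 for Cnksr1 (edgeR adjusted p = 0.458).

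**Figure D3:**
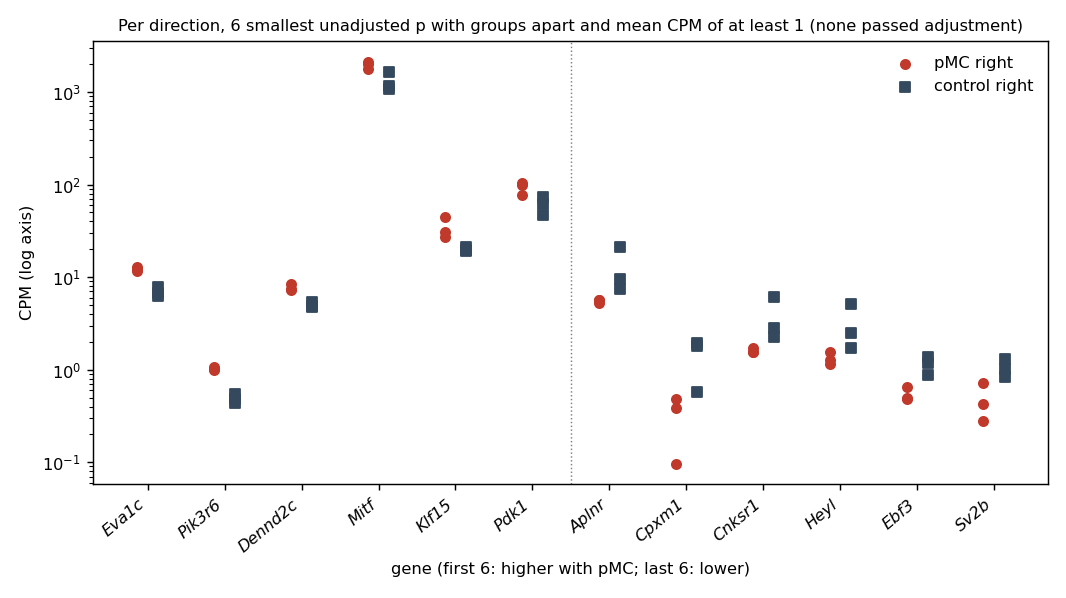
CPM on a log axis for the 6 genes per direction with the smallest unadjusted p among those with groups apart and a mean of at least 1 CPM in the higher group, with pMC right (red circles, left of each pair) and control right (dark squares), 3 libraries each. Controls spread more widely than pMC for Aplnr, Cnksr1 and Heyl, and no gene passed adjustment (adjusted p 0.945 for all 12).

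Pigment genes marked all 6 samples as melanoma. The 19 listed melanocyte genes found in the files summed to 43703 CPM in pMC 1, 46074 in pMC 2 and 49466 in pMC 3, against 35873 in control 1, 37351 in control 2 and 49652 in control 3. Dct, a melanin synthesis enzyme, had 12700, 16073 and 18513 CPM in pMC 1, 2 and 3, against 9568, 8662 and 16933 CPM in control 1, 2 and 3. Control 3 lay inside the pMC range and the other controls below it. Tyr, the first enzyme of that pathway, also had control 3 inside the pMC range, with a log2 fold change of 0.52 ± 0.29. Pmel, the fibril protein of melanosomes, differed by 0.00 ± 0.17. Of 18 tested melanocyte genes 11 were above 0 with a median of 0.04, and for 17 the interval lay within 2-fold.

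Interferon-response genes differed little between pMC and control tumours with all libraries. None of the 40 genes of the type I interferon list had an unadjusted p under 0.05, and 37 of the 40 intervals lay within 2-fold, against 71.5% of all genes. Without control 3, 12 of the 40 were higher and 1 lower at an unadjusted p under 0.05 (edgeR), with 0 called. Over all genes in that fit, 2392 were higher and 1135 lower at such a p, together 23.3%. The list's median log2 fold change was 0.10, with a range of -0.35 to 0.45. Irf7, a transcription factor that drives interferon alpha genes, had 60.4, 54.5 and 58.8 CPM in pMC 1, 2 and 3, against 42.5, 52.2 and 69.1 CPM in control 1, 2 and 3 (0.09 ± 0.18). The pMC libraries lay inside the control range. In IFN-alpha-pMC right tumours Irf7 rose to 243.1, 247.8 and 241.4 CPM, 2.08 ± 0.18 above pMC tumours on the log2 scale (edgeR adjusted p = 4.35e-06). Ifit1, an antiviral RNA-binding protein, had 111.7, 119.4 and 120.3 CPM in pMC 1, 2 and 3, against 68.9, 89.9 and 116.6 CPM in control 1, 2 and 3 (0.35 ± 0.18). Isg15, a ubiquitin-like modifier, was at 0.45 ± 0.33 and Mx1, a dynamin-like antiviral GTPase, at 0.38 ± 0.21, both with overlapping groups. Between the cell types, 26 of the 40 genes were higher in IFN-alpha-pMC tumours than in pMC tumours at an adjusted p under 0.05. The list median was 0.83, and 8.88% of all genes were higher in that contrast.

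The interferon-gamma list had a median of 0.18 over 24 tested genes. Its smallest unadjusted p belonged to Iigp1, an immunity-related GTPase, with 685.6, 1031.6 and 966.3 CPM in pMC 1, 2 and 3, against 342.3, 574.9 and 782.0 CPM in control 1, 2 and 3 (0.66 ± 0.26). The groups overlapped at pMC 1 and control 3. The T cell attractant chemokines Cxcl9 and Cxcl10 were at 0.00 ± 0.23 and -0.01 ± 0.23, with intervals of -0.49 to 0.49 and -0.51 to 0.48. Irf1, a transcription factor of the same response, was at 0.20 ± 0.17. In IFN-alpha-pMC tumours 22 of the 24 genes were higher than in pMC tumours (edgeR adjusted p under 0.05), against 8.88% of all genes.

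Antigen presentation genes gave medians of 0.13 for 17 class I genes and 0.17 for 12 class II genes. The class I heavy chain H2-D1 had 1164.3, 1365.7 and 1230.2 CPM in pMC 1, 2 and 3, against 722.6, 1107.2 and 1084.6 CPM in control 1, 2 and 3 (0.37 ± 0.19), and was the only listed class I gene whose groups did not overlap. Over all genes, 1.68% had every pMC library above every control. H2-K1 was at 0.42 ± 0.23 and B2m, the light chain, at 0.23 ± 0.23. Heavy chain genes are near-identical copies, and reads aligned more than once are not in the counts, so their values are uncertain. The class II chaperone Cd74 was at 0.09 ± 0.27, and the class II chains H2-Aa and H2-Ab1 at 0.20 ± 0.34 and 0.29 ± 0.38.

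Lymphocyte genes were low in both groups and did not pass the test. The 25 T cell genes summed to 63.4, 92.2 and 90.2 CPM in pMC 1, 2 and 3, against 53.8, 79.7 and 88.2 CPM in control 1, 2 and 3, while IFN-alpha-pMC right tumours reached 426.3, 529.3 and 414.7 CPM. Library 1 was the lowest in both groups. Cd3e, a CD3 signalling chain, had 1.49, 2.83 and 2.62 CPM in pMC 1, 2 and 3, against 0.869, 3.01 and 1.81 CPM in control 1, 2 and 3 (0.29 ± 0.40, 95% interval -0.55 to 1.12). Themis, a regulator of T cell receptor signalling, had 0.996, 2.16 and 1.87 CPM in pMC 1, 2 and 3, against 0.411, 0.96 and 0.813 CPM in control 1, 2 and 3 (1.21 ± 0.46). It was the only listed T cell gene whose groups were apart, and with the adhesion receptor Cd2 (0.87 ± 0.38) the only one at an unadjusted p under 0.05. Over all genes, 1.68% were apart on the higher side and 1.26% were higher at an unadjusted p under 0.05 (edgeR). The T cell median was 0.21, and 12 of 25 intervals lay within 2-fold. All 25 genes were higher in IFN-alpha-pMC tumours than in pMC tumours at an edgeR adjusted p under 0.05, against 8.88% of all genes. Their median was 2.67.

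The 16 cytotoxic effector genes had a median of 0.34, and 14 were above 0. Gzmb, the granzyme that triggers apoptosis in target cells, had 3.98, 7.87 and 5.83 CPM in pMC 1, 2 and 3, against 1.46, 2.01 and 6.38 CPM in control 1, 2 and 3 (0.89 ± 0.41, 95% interval 0.02 to 1.76). Control 3 was inside the pMC range. In IFN-alpha-pMC right tumours Gzmb rose to 151, 185.9 and 138.8 CPM, 4.74 ± 0.43 above pMC tumours (edgeR adjusted p = 4.46e-06). Granzymes form a family of close copies, so counts may be split among them. For 12 cytotoxic genes the interval with pMC reached beyond 2-fold, so a rise of that size was not outside what these libraries allow. NK cell genes (12 tested) had a median of 0.24, with 0.15 ± 0.42 for Ncr1, the NKp46 receptor, and 1.01 ± 0.60 for Klrc1, the NKG2A receptor. Checkpoint and regulatory T cell genes (14 tested) had a median of 0.13, including Pdcd1, the PD-1 receptor, at 0.55 ± 0.51 and Foxp3, the regulatory T cell factor, at 0.07 ± 0.58.

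The size and sign of these lymphocyte and interferon medians changed with the control left out. All 8 lists (both interferon lists, both presentation lists, T cell, cytotoxic, NK cell and checkpoint) had a median above 0 with all libraries, and all 8 were below 0 without control 1, where the median over all genes was also lower, at -0.10 compared with -0.03. Without that library the list medians were -0.08 for type I interferon, -0.04 for interferon gamma, -0.03 for class I, -0.17 for class II, -0.17 for T cell, -0.07 for cytotoxic, -0.10 for NK cell and -0.14 for checkpoint genes. Type I interferon, interferon gamma, class I and cytotoxic medians thus stayed above that of all genes, the NK cell median equalled it, and the class II, T cell and checkpoint medians lay below it. Without control 3, the library farthest from its group, all 8 medians were above 0, against -0.02 for all genes. They were 0.21 for type I interferon, 0.28 for interferon gamma, 0.27 for class I, 0.52 for class II, 0.17 for T cell, 0.73 for cytotoxic, 0.81 for NK cell and 0.06 for checkpoint genes, with 0 called in each list. At an unadjusted p under 0.05 (edgeR), 12 type I, 7 interferon gamma, 7 class I and 4 class II genes were then higher. So were 5 T cell, 5 cytotoxic, 5 NK cell and 3 checkpoint genes, with 1 type I gene lower. Over all genes in that fit, 2392 were higher and 1135 lower. Without control 1, 0 genes of these lists were higher at such a p, and 1 T cell and 1 checkpoint gene were lower. Control 1 had the lowest summed level of the 6 libraries in each of these 8 lists, and it also held the most muscle RNA.

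Myeloid genes were not on one side of 0 with all libraries. The 24 monocyte and macrophage genes had a median of -0.06, with 11 above and 13 below 0, and 16 intervals lay within 2-fold. The F4/80 gene Adgre1 had 36.2, 46 and 36.2 CPM in pMC 1, 2 and 3, against 35.1, 51.1 and 47.2 CPM in control 1, 2 and 3 (-0.17 ± 0.19, 95% interval -0.57 to 0.23). Csf1r, the receptor that keeps macrophages alive, was at -0.14 ± 0.26 and Cd68, a lysosomal macrophage marker, at -0.14 ± 0.20. Spi1, the PU.1 transcription factor of myeloid cells, had 11.5, 14.1 and 14.7 CPM in pMC 1, 2 and 3, against 12.8, 15.1 and 17.8 CPM in control 1, 2 and 3. In IFN-alpha-pMC right tumours Spi1 rose to 49.8, 48.5 and 52.3 CPM, 1.90 ± 0.16 above pMC tumours (edgeR adjusted p = 4.3e-06). None of the 24 genes had an unadjusted p under 0.05 between pMC and control tumours (edgeR). The list median was 0.30 without control 3 and -0.25 without control 1. Without control 3, 10 genes were higher and 0 lower at an unadjusted p under 0.05 (edgeR), with 0 called. Over all genes in that fit, 2392 were higher and 1135 lower at such a p, together 23.3%. Tissue macrophage and alternative activation genes (20 tested) had a median of 0.05, with the mannose receptor Mrc1 at -0.04 ± 0.22 and complement C1qa at 0.24 ± 0.23. Their median was 0.50 without control 3.

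Of 14 neutrophil genes only 5 had enough counts to test, and their median was -0.85, with none of the 5 intervals within 2-fold. The list summed to 3.87, 4.94 and 6.42 CPM in pMC 1, 2 and 3, against 6.68, 6.67 and 9.50 CPM in control 1, 2 and 3, so the groups did not overlap in this sum. Csf3r, the receptor for the neutrophil growth factor, made up most of it and was at -0.45 ± 0.29. Mpo, a granule protein gene, had 0 counts in both groups, where 3 counts would be 0.131 to 0.188 CPM. Of the 14 listed neutrophil genes, 2 had 0 counts in all 6 libraries. Among myeloid growth factors and chemokines (16 tested, median 0.01), Cxcl12, a stromal chemokine, had 5.14, 4.37 and 8.56 CPM in pMC 1, 2 and 3, against 12.8, 10.3 and 7.07 CPM in control 1, 2 and 3 (-0.74 ± 0.27). Ccl2, which attracts monocytes, was at -0.08 ± 0.38 in pMC against control tumours and rose by 3.03 ± 0.40 in IFN-alpha-pMC against pMC tumours (edgeR adjusted p = 9.1e-05). Conventional dendritic cell genes had a median of -0.03 (16 tested), plasmacytoid dendritic cell genes -0.11 (9), B and plasma cell genes -0.01 (9) and mast cell, basophil and eosinophil genes -0.22 (5). The plasmacytoid list includes Cox6a2, which muscle also expresses, at 14.3 CPM in control 1 and at most 3.13 CPM in the other 5 libraries.

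Vessel genes lay on the lower side with pMC, without any passing the test. Of 22 tested endothelial genes 0 were above 0 by the fitted log2 fold change, with a median of -0.38, against -0.03 for all genes. The list summed to 425.6, 376.5 and 398 CPM in pMC 1, 2 and 3, against 621.4, 533.7 and 310.4 CPM in control 1, 2 and 3. Control 3 was the lowest of all 6, below every pMC library. Tek, the angiopoietin receptor, had 1.77, 1.34 and 1.93 CPM in pMC 1, 2 and 3, against 4.34, 2.7 and 2 CPM in control 1, 2 and 3 (-0.85 ± 0.32). Erg, an endothelial ETS factor, had 2.82, 2.01 and 2.14 CPM in pMC 1, 2 and 3, against 5.07, 2.88 and 3.31 CPM in control 1, 2 and 3 (-0.69 ± 0.28). With Aplnr these were the 3 endothelial genes at an unadjusted p under 0.05 on the lower side, against 1.16% of all genes. They and Sox17, an endothelial factor of arteries, were the 4 whose pMC libraries were all below the controls, against 1.64% of all genes. Pecam1, the CD31 adhesion molecule, was at -0.43 ± 0.21, Cdh5, VE-cadherin, at -0.45 ± 0.33, and Kdr, the main VEGF receptor, at -0.54 ± 0.40, all with overlapping groups. The endothelial median was -0.57 to -0.22 when each of the 6 libraries was left out, and -0.32 with the length and GC offset. Without control 3, 12 of the 22 were lower and 0 higher at an unadjusted p under 0.05 (edgeR), with 0 called. Over all genes in that fit, 1135 were lower and 2392 higher at such a p. Without control 1, 1 of the 22 was lower at such a p. On the left side the endothelial median was -0.11, and no endothelial gene differed between sides at an adjusted p under 0.05 (0 also at an unadjusted p under 0.05, edgeR). In IFN-alpha-pMC against control right tumours the endothelial median was -0.52. There 4 genes were lower at an edgeR adjusted p under 0.05, against 2.01% of all genes. That contrast uses the same right controls, so it is not separate from pMC against control. In IFN-alpha-pMC against pMC right tumours the endothelial median was -0.10, with 0 called.

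Pericyte and smooth muscle genes (11 tested) had a median of -0.34, with Pdgfrb, the pericyte growth factor receptor, at -0.57 ± 0.34 and Rgs5 at -0.10 ± 0.18. Fibroblast and matrix genes had a median of -0.69, and 27 of 30 were below 0. Col3a1, a fibrillar collagen, had 56.7, 34.6 and 123.6 CPM in pMC 1, 2 and 3, against 192.9, 55.1 and 157.7 CPM in control 1, 2 and 3 (-0.92 ± 0.49). The spread within each group was over 3-fold. Dcn, the proteoglycan decorin, had 4.31, 3.98 and 9.21 CPM in pMC 1, 2 and 3, against 15.5, 4.62 and 18.7 CPM in control 1, 2 and 3 (-1.15 ± 0.40), and was the 1 listed matrix gene at an unadjusted p under 0.05. Over all genes, 1.16% were lower at such a p (edgeR). Without control 1 the fibroblast median was -0.31, and without control 2 it was -1.01. With the muscle score as a covariate it was -0.42. IFN-alpha-pMC right tumours were higher than pMC right tumours for 15 of the 30 genes, against 8.88% of all genes (edgeR adjusted p under 0.05). The list median there was 1.56. Skeletal muscle genes were higher in the same contrast, 15 of 27 tested with a median of 3.85, and summed to 2543.4, 3249.2 and 5072.3 CPM in IFN-alpha-pMC right tumours. The part of muscle RNA in the other differences between IFN-alpha-pMC and pMC tumours was not tested.

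Skeletal muscle RNA differed between libraries more than between groups. The 30 muscle genes summed to 157.6, 354.2 and 245.3 CPM in pMC 1, 2 and 3, against 1355.5, 85.1 and 300.8 CPM in control 1, 2 and 3. Control 1 was the highest and control 2 the lowest of the 6. Acta1, skeletal actin, had 28.1, 39.8 and 30.7 CPM in pMC 1, 2 and 3, against 387, 5.5 and 54.3 CPM in control 1, 2 and 3. The list median was -1.33 with all libraries and 0.54 without control 1. The 2 genes that DESeq2 called lower, Myl3 and Myh7, encode a slow-muscle light chain and a slow-muscle heavy chain, and were picked after their values were seen. Myl3 had 0 counts in the 3 pMC libraries together, against 225, 0 and 1 in control 1, 2 and 3. Myh7 had 0 in pMC against 90, 0 and 0 in control 1, 2 and 3. Both calls rest on control 1, and edgeR's adjusted p was 0.945 for each. In the left control 1 library Myl3 had 246 and Myh7 304 counts, with 0 in the other left controls.

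**Figure D4:**
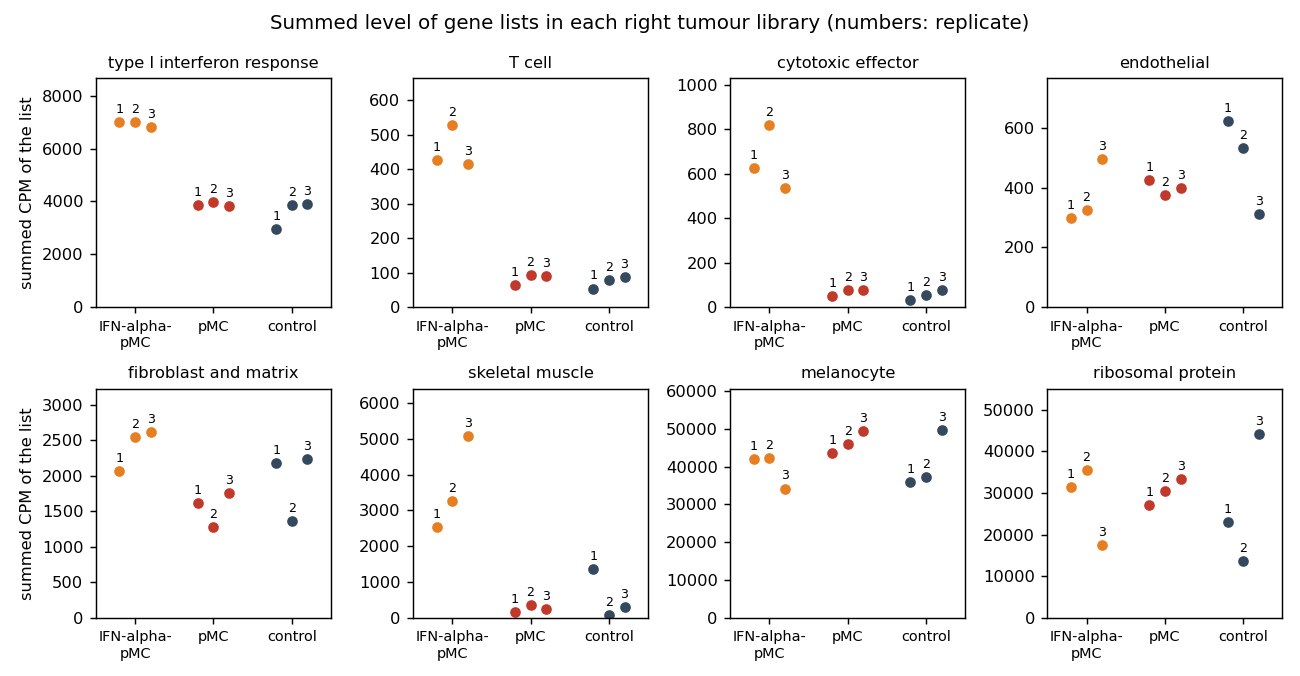
Summed CPM of 8 gene lists in each right library, with IFN-alpha-pMC, pMC and control from left to right and the replicate number above each point; axes start at 0. Interferon, T cell and cytotoxic levels of pMC overlap those of control and lie below IFN-alpha-pMC, and control 1 stands out for muscle (1355.5 CPM) and control 3 for ribosomal genes (44265 CPM).

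Hypoxia and glycolysis genes were the 1 list whose median stayed above 0 when any of the 6 libraries was left out (0.05 to 0.37, with 0.25 for all libraries). Of 25 tested genes 20 were above 0, 4 were higher and 2 lower at an unadjusted p under 0.05, against 1.26% and 1.16% of all genes, and 0 were called. Car9, the acid-regulating carbonic anhydrase of hypoxic cells, had 40, 34.2 and 19.5 CPM in pMC 1, 2 and 3, against 13.4, 13 and 30.5 CPM in control 1, 2 and 3 (0.73 ± 0.32). Control 3 lay inside the pMC range. Bnip3, a mitophagy receptor, had 294.8, 327.3 and 252.4 CPM in pMC 1, 2 and 3, against 89.7, 63.2 and 258.9 CPM in control 1, 2 and 3 (1.09 ± 0.48), again with control 3 inside the pMC range. Vegfa, the main angiogenic factor, was at 0.34 ± 0.19 and the glucose transporter Slc2a1 at 0.25 ± 0.22. Egln3, the oxygen-sensing prolyl hydroxylase, ran the other way at -1.62 ± 0.66, with 3.98 CPM in control 1 and at most 0.768 CPM in the other 5 libraries. The list's summed level was 16914, 15782 and 13098 CPM in pMC 1, 2 and 3, against 12246, 10994 and 16473 CPM in control 1, 2 and 3, and the groups overlapped.

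Proliferation genes had a median of -0.15, and 27 of 30 intervals lay within 2-fold. Mki67, the Ki-67 proliferation marker, had 220.7, 235.5 and 260.8 CPM in pMC 1, 2 and 3, against 420.3, 396.8 and 141.3 CPM in control 1, 2 and 3. Its pMC libraries lay between control 3 and the other controls. Top2a, a topoisomerase of dividing cells, was at -0.09 ± 0.19 and Cdk1, the mitotic kinase, at 0.07 ± 0.28. Apoptosis and p53 target genes had a median of 0 over 19 genes, with Cdkn1a, the p21 inhibitor, at -0.08 ± 0.21. Immediate early genes had a median of -0.23 over 23 genes. Fosb had 0.442, 0.48 and 0.535 CPM in pMC 1, 2 and 3, against 0.823, 1.57 and 1.06 CPM in control 1, 2 and 3 (-1.24 ± 0.52), and Egr1 was at -0.85 ± 0.36.

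Among the other lists, medians were -0.05 for unfolded protein and ATF4 stress genes (23 tested), 0.03 for cholesterol synthesis (18), -0.13 for NF-kappa-B targets (18), -0.13 for TGF-beta signalling (14) and -0.11 for circadian clock genes (16). Per1, a clock gene also induced by glucocorticoids, had 111.1, 135.5 and 104.3 CPM in pMC 1, 2 and 3, against 38.4, 79 and 70.3 CPM in control 1, 2 and 3 (0.90 ± 0.41). The groups were apart. IFN-alpha-pMC right tumours had 25.9, 21.5 and 43.8 CPM of Per1, lower than pMC tumours by a log2 fold change of -1.94 ± 0.42 (edgeR adjusted p = 0.00501). That contrast uses the same pMC values again. Erythroid (10 tested, -0.16), platelet (3, 0.19), adipocyte (8, -0.04), keratinocyte (2, -0.39) and nerve genes (10, -0.08) gave 0 calls. Ngfr, the low-affinity neurotrophin receptor, had 0.166, 0.144 and 0.375 CPM in pMC 1, 2 and 3, against 0.96, 0.48 and 0.75 CPM in control 1, 2 and 3 (-1.66 ± 0.45). All pMC libraries were below all controls at these low levels. Ngfr is also a marker of dedifferentiated melanoma cells.

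Ribosomal protein and oxidative phosphorylation genes each had a median of 0.15 and moved with the length measure of the controls. Ribosomal genes summed to 27084, 30358 and 33422 CPM in pMC 1, 2 and 3, against 22961, 13548 and 44265 CPM in control 1, 2 and 3. The controls differed by more than 3-fold and enclosed the pMC range. Without control 3 the medians were 0.75 for ribosomal and 0.50 for oxidative phosphorylation genes. Whether short transcripts were recovered differently in control 3 was not tested.

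For genes of pluripotent cells no difference was detectable at this depth. Of 16 listed genes 6 were tested, and their median was 0.08, with all 6 intervals within 2-fold. Pou5f1, Sox2, Lin28a, Zfp42 and Dppa5a had 0 counts in all 9 right libraries, so a level of up to 0.131 to 0.188 CPM per library of the 2 groups remains possible. Nanog had 2 counts in all pMC libraries together and 2 in all control libraries together. Xist was at 13.3, 20.3 and 24.8 CPM in pMC 1, 2 and 3, against 16.1, 23.4 and 16.2 CPM in control 1, 2 and 3, and the 4 listed Y-linked genes had 0 counts in these 6 libraries.

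**Figure D5:**
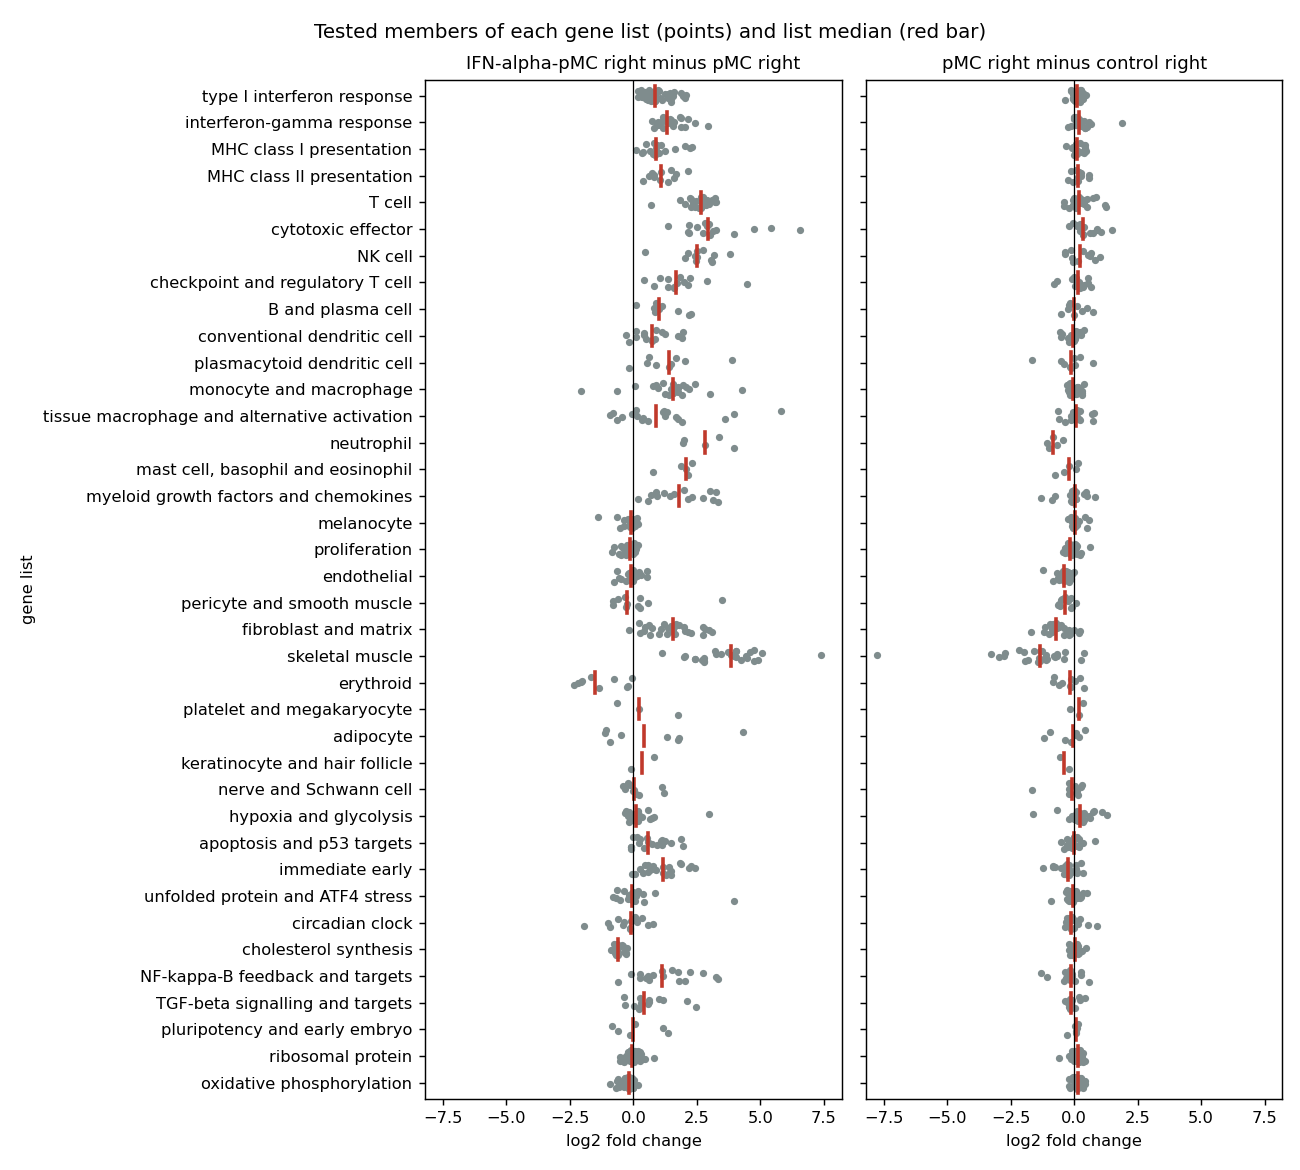
Log2 fold changes of tested list members (grey points) with the list median (red bar), for IFN-alpha-pMC right minus pMC right (left panel) and pMC right minus control right (right panel). With pMC alone the T cell median is 0.21 and the cytotoxic median 0.34, against 2.67 and 2.95 for IFN-alpha-pMC over pMC.

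The difference between pMC and control tumours was not shown to differ between the injected and the distant side for any gene. This difference between the sides, the right pMC minus control difference less the left one, gave 0 higher and 0 lower by edgeR's quasi-likelihood test, with 102 genes (0.687%) at an unadjusted p under 0.05. That model treats right and left libraries as independent, and a fit with treatment and replicate number as a block also gave 0 higher and 0 lower. On the left alone, pMC against control tumours also gave 0 higher and 0 lower, with 119 genes (0.801%) at an unadjusted p under 0.05. DESeq2 called Myl3 lower on the left too (adjusted p = 3.81e-09), with all 246 control counts in left control 1 and 0 counts in left pMC tumours. There the groups did not overlap for 1440 genes higher (9.7%) and 755 lower (5.08%), compared with 1.68% and 1.64% on the right. The left T cell median was 0.34 and the left cytotoxic median 0.46, against 0.21 and 0.34 on the right. Fibroblast genes had a left median of -0.03, against -0.69 on the right, and the median of their side differences was -0.60 with 0 of 30 called.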

How the data were processed

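Each deposited file holds the raw counts of 1 library by Ensembl gene ID, and its whole numbers show no normalization. Per the labels' protocols, libraries were made with a stranded mRNA kit. Per the submitters' processing notes, the tools include Trimmomatic 0.36, HISAT2 2.1.0 and HTSeq 0.10.0, and the build is mm9. With the annotation release and strand setting not given in the sources used here, antisense partners may be mixed. Summary rows (in the 6 libraries, 6.87 to 12.21% in no feature and 20.1 to 24.34% aligned more than once) were left out. Symbols came from GENCODE M21 by Ensembl ID (32897 of 37620 IDs), and 9 list symbols had no match. Coordinates were not used, since the reference is of another build.

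Counts were tested with the two-sided quasi-likelihood test of edgeR 4.0.16 (R 4.3.3), with trimmed-mean scaling, filterByExpr defaults, and 1 model with 6 group means over all 18 libraries (12 residual degrees of freedom). Benjamini-Hochberg adjustment ran over 14849 genes, with a threshold of 0.05. CPM is per scaled library size. Fold changes are log2 ± SE, where SE is the log2 fold change over the root of its F statistic. A floor is 3 counts, and covers counting error only, since reads carry no molecular identifiers. An exact permutation test of 3 against 3 cannot go below 0.1 and was not used. limma 3.58.1 and DESeq2 1.42.0 were alternatives, and the tests were also run on simulated counts. Those counts had the same spread in every group and no length trend. They therefore do not show how the tests behave with controls as spread as these. No 2 of the 6 right pMC and control libraries agreed within sampling noise, and the other libraries were not checked for this.

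Named genes were, per direction, up to 12 called genes or, where none was called, the 6 with the smallest p, a mean of at least 1 CPM in the higher group and groups apart, then the first 3 tested members and the 2 members of smallest p in each list. Others are said to be picked after their values were seen or show a list's range. The comparison and the 39 lists, written from textbook markers, were chosen with earlier results of these data known.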

Additional observations from a re-analysis of the deposited data

How the results depend on the processing

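Genes called for pMC right against control right stayed at 0 higher and 0 lower in edgeR under other scalings, other filters, a fit of the 2 groups alone, a muscle covariate, and a length and GC offset, and in limma-voom. DESeq2 called 2 lower, which both rest on control 1. Leaving out 1 library gave 0 to 1 higher and 0 lower, and the side difference was 0 in every setting run. Chosen after seeing the data, leaving out the 3 libraries least like their own group (control right 3, IFN-alpha-pMC right 3 and IFN-alpha-pMC left 1) gave 2932 higher and 2135 lower, and with the length and GC offset 1879 higher and 565 lower. These libraries were picked by how they spread, so these p-values are too small. Same-numbered pMC and control libraries had deviations that correlated at 0.17, 0.03 and 0.35. Among pairs of unlike number, pMC 1 with control 2 gave 0.18 and the others -0.27 to 0.07. Whether same-numbered libraries share more than a number was not tested. Right and left libraries of the same number correlated at 0.11, 0.02 and 0.13 in pMC tumours and 0.59, 0.16 and -0.02 in controls, and the side difference with them as a replicate block was also 0. With the replicate block 0 higher and 0 lower were called, with 322 unadjusted genes, and 482 with the length and GC offset as well. Of the 39 list medians, 13 kept their sign without each of the 6 libraries (1 above 0 and 12 below), and the cause of the others' turns was not tested. With 3 libraries a group, the 95% interval of a gene of median precision reached 1.44-fold either way. That interval rests on the spread shared by all groups and may be too narrow for the right controls.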
